A study of Mus musculus with 20 samples.

Results

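The clustered protocadherins are neuronal cell-surface cadherins encoded by neighbouring genes on mouse chromosome 18. All genes whose symbol starts with Pcdha, Pcdhb or Pcdhg were taken, which gave 58 of the 17880 genes listed in either of the count tables of the study: 14 of the alpha cluster, 22 of the beta cluster and 22 of the gamma cluster. Each of the 58 was listed in both tables. RNA was measured in brain tissue of C57Bl6/J mice, either wild type (Ncs1+/+) or Ncs1-/-, in frontal cortex and in hippocampus. Each genotype had 5 libraries per region, 20 in all, and Ncs1-/- is called knockout here. The labels give a strain background, genotype and tissue, with no age, treatment or account of how the Ncs1 allele was made. They do not tie the libraries of a group to separate animals, so a p-value here measures only how far these samples spread, which can be technical.

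In the alpha and gamma clusters each gene has its own variable first exon, driven by its own promoter, and splices it to constant exons that all genes of the cluster share. Beta genes have no constant exons. Neurons pick a subset of the variable promoters, a choice in which CTCF, cohesin and DNA methylation take part, and the resulting set of proteins binds like to like between cells and lets neurites of 1 neuron recognise each other. The last genes of the alpha and gamma clusters, the C-type genes Pcdhac1, Pcdhac2, Pcdhgc3, Pcdhgc4 and Pcdhgc5, are expressed less selectively than the others. Ncs1 encodes neuronal calcium sensor 1, and the design asks what its loss does to brain RNA.

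On the mm10 build named by the labels, all 58 genes lay on the plus strand. The alpha cluster ran from 36930285 to 37188897, the beta cluster from 37264998 to 37521419 and the gamma cluster from 37661775 to 37841872. Every alpha gene model overlapped the other 13 on that strand, and every gamma model the other 21, because the models end in the same constant exons. By the GENCODE M21 annotation, a median of 53.5% of the exonic bases of an alpha gene (range 28.5% to 54.9%) and 44.7% of a gamma gene (27.8% to 66.8%) also belonged to another member. No beta model overlapped another member in the deposited tables. The tables also held 3 long read-through models, Gm37013, Gm38666 and Gm38667, whose spans on the same strand overlap all 58 members. Their summed level was 5.75 to 12.4 CPM per library, where CPM is a gene's count per 1 M counts of its library.

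The deposited values are estimated counts, and fractional values were most frequent where models overlapped. In cortex 100% of the alpha values and 99.1% of the gamma values differed from a whole number by over 0.001, against 10.9% of the beta values. In hippocampus the shares were 100%, 99.5% and 3.64%. Over all genes of a library the share was 22.6% to 27.3%. Reads of shared exons cannot be assigned to 1 gene without estimation, so the level of a single alpha or gamma gene is less certain than the sum of its cluster.

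The genotype labels were checked on Ncs1 itself. It stood at 368 ± 17.3 CPM in the cortex of wild-type mice and at 259 ± 3.68 CPM in that of knockout mice (SD, n = 5 each), so 70.4% remained. In hippocampus it stood at 441 ± 17.3 and 300 ± 21.2 CPM, and 68.0% remained. Genotypes did not overlap in either region (two-sided exact permutation test p = 0.00794 in each, the smallest that 5 against 5 can give). Depth was 16.6 M to 34.6 M counts per library. Excitatory neuron markers (5 of 5 listed) summed to 4836 to 7192 CPM in each library, and markers of the dentate gyrus and hippocampal fields (6 of 6) to 122 to 192 CPM in cortex and 437 to 673 CPM in hippocampus. Of these 6 genes 5 passed as higher in hippocampus and 0 as lower in each genotype. Wfs1 overlapped between regions, with 81.5 to 154 CPM in wild-type cortex and 99.7 to 159 CPM in wild-type hippocampus. All cortex libraries are named for 1 lane and all hippocampus libraries for another, and the regions came in separate tables, so region, lane and table cannot be told apart.

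Gamma genes made up most of the protocadherin RNA. Together the 58 genes took 0.131% ± 0.00336 of the counts of a wild-type cortex library and 0.120% ± 0.00265 of a wild-type hippocampus library (SD, n = 5). In wild-type cortex the gamma cluster summed to 893 ± 27.4 CPM, the alpha cluster to 263 ± 11.5 CPM and the beta cluster to 163 ± 10.5 CPM (SD, n = 5). This is 67.7%, 19.9% and 12.4% of the members' CPM. In the other groups gamma genes held 66.7% to 70.5%, alpha genes 17.4% to 19.8% and beta genes 12.1% to 13.5%.

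Within the clusters the C-type genes led. Pcdhac2 alone held 44.6% ± 1.29 of the alpha CPM in wild-type cortex and 45.7% ± 2.42 in wild-type hippocampus (SD, n = 5). Pcdhgc3, Pcdhgc4 and Pcdhgc5 together held 48.5% ± 0.691 of the gamma CPM in wild-type cortex, against 38.9% ± 1.17 for the A-type genes and 12.6% ± 0.632 for the B-type genes. To compare genes with each other, CPM was divided by exonic length in kilobases. On this scale, over all libraries, Pcdhgc3 stood highest at 30.0 CPM per kb, followed by Pcdhgc5 at 27.6 and Pcdhac2 at 17.6. Pcdhga11 followed at 11.7. The order of the first pair turned when coding length was used, with 74.4 CPM per kb for Pcdhgc5 and 58.9 for Pcdhgc3.

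Not all C-type genes were high. Pcdhac1 stood at 1.92 CPM per kb, which ranked 7 of the 13 alpha genes with a length. Pcdhgc4, which is known for its part in the survival of interneurons, stood at 4.24 CPM per kb and ranked 14 of 22 in its cluster. The variable genes of the alpha cluster ranged from 0.199 CPM per kb for Pcdha8 to 3.71 for Pcdha12, and those of the gamma cluster from 0.604 for Pcdhgb8 to 11.7 for Pcdhga11. Pcdha10 has no length here, because its symbol was absent from the annotation, where an exon of Pcdha11 covers its start. The annotated Pcdha11 thus begins before its deposited start and is 10034 exonic bases long, against 5335 for Pcdha12. Its level of 0.908 CPM per kb, its place in the order by level and its 28.5% of shared exonic bases rest on that length.

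Beta genes lay in a range like that of the variable alpha genes. Pcdhb9 stood highest at 4.42 CPM per kb of exonic length, before Pcdhb20 at 3.78 and Pcdhb17 at 3.68. By the deposited spans, which are shorter for several beta genes, Pcdhb17 led at 5.24. Pcdhb1, the first gene of the cluster, was nearly absent, at 0 to 0.506 CPM, and did not pass the filter on low counts. It was at 0 in 1 library (wild-type cortex replicate 5), where 3 counts would be 0.154 CPM.

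Level followed position along a cluster only loosely. Spearman's rho between order along the chromosome and CPM per kb was 0.17 over 11 alpha genes, -0.08 over 19 gamma genes (C-type genes left out of both) and 0.28 over 22 beta genes. For beta genes it was 0.53 per kb of coding length and 0.48 per kb of the deposited span. These are descriptions across genes that share libraries and, in the alpha and gamma clusters, exons.

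**Figure D1:**
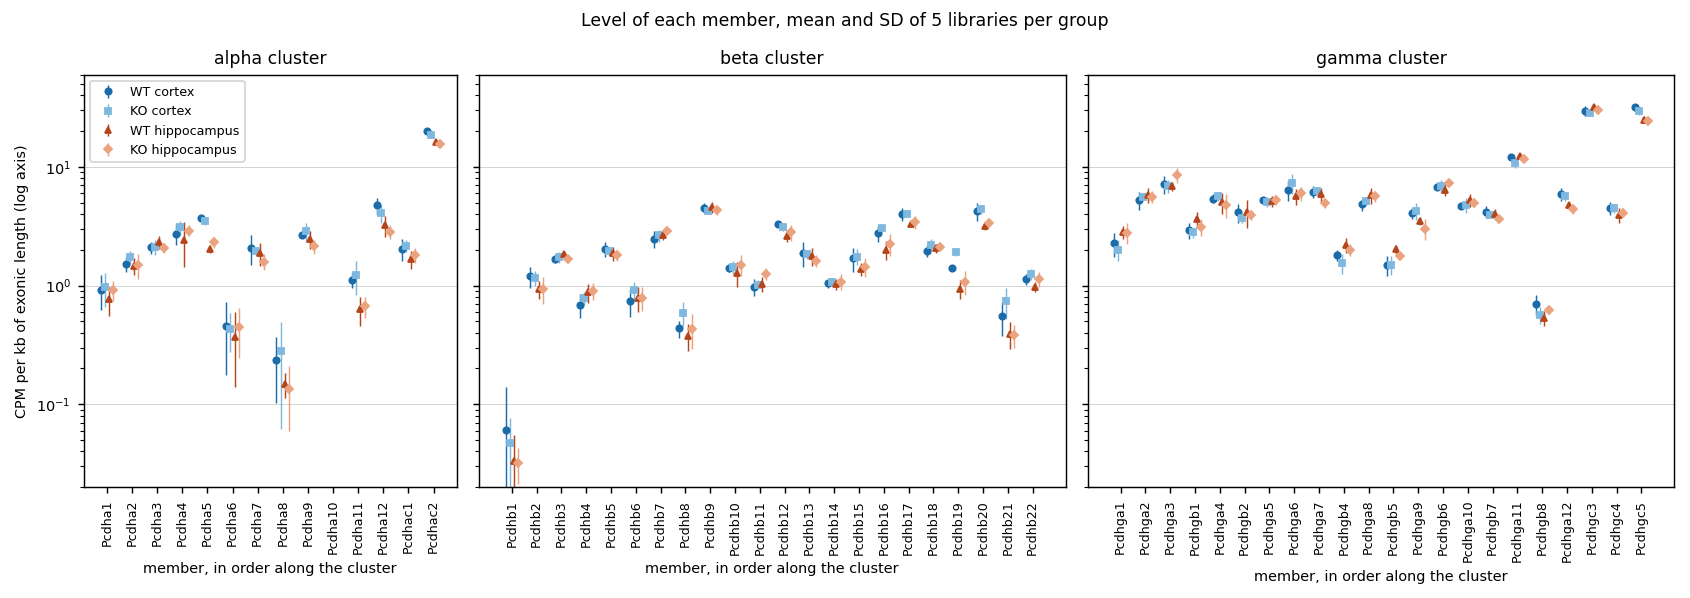
Level of each member in CPM per kb of exonic length (log axis) in order along its cluster, with points for the mean and bars for the SD of 5 libraries per group (a bar that reaches 0 is cut at the axis, and Pcdha10 has no length). Pcdhgc3, Pcdhgc5 and Pcdhac2 stand above the rest in all 4 groups, and Pcdhb1, Pcdha8 and Pcdha6 lie at the bottom.

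Some low alpha genes varied widely between libraries of 1 group. Pcdha6 was at 1.97, 3.07, 0.00222, 1.88 and 3.03 CPM in the 5 wild-type hippocampus libraries, and at 1.504, 2.98, 3.17, 0.369 and 4.09 CPM in wild-type cortex. In hippocampus 1 library was assigned almost none of it. The read-through model Gm38666 starts at 36967631, near the Pcdha6 start of 36967625. Its level was 5.37, 6.07, 6.21, 2.85 and 3.76 CPM in the same wild-type hippocampus libraries, in that order. How reads were divided between Pcdha6 and Gm38666 was not tested. Pcdha8 was at 1.72, 1.11, 0.638, 0.588 and 3.39 CPM in knockout cortex. Over the 4 groups the median coefficient of variation of a single gene was 15.5% to 20.8% among 14 alpha genes, 10.2% to 15.4% among the 21 beta genes that passed the filter and 8.83% to 13.2% among 22 gamma genes. That of the cluster sum, which averages over its genes and in the alpha cluster is led by Pcdhac2, was 3.27% to 5.59%, 1.63% to 9.64% and 3.07% to 4.78%. Pcdhac2 had the lowest coefficient of the alpha genes in all 4 groups.

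The spread was also set against counting noise, as the squared deviation of the counts from the fitted group mean over that mean, which is near 1 where only counting adds noise. In cortex its median was 8.92 for alpha genes, 5.95 for gamma genes and 1.94 for beta genes, against 2.33 for other genes with a mean of 50 to 1000 counts. Hippocampus gave 7.77, 9.54 and 3.23, against 3.28. Where libraries vary in proportion to a gene's level, this index grows with the count, and the median count per library was 221 for alpha, 138 for beta and 484 for gamma genes in cortex and 239, 170 and 625 in hippocampus. The index thus does not rank the clusters by variability, and the median gamma coefficient of variation was below that of beta genes in all 4 groups. What part estimation of the shared reads, animals and dissection each had in this was not tested.

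**Figure D2:**
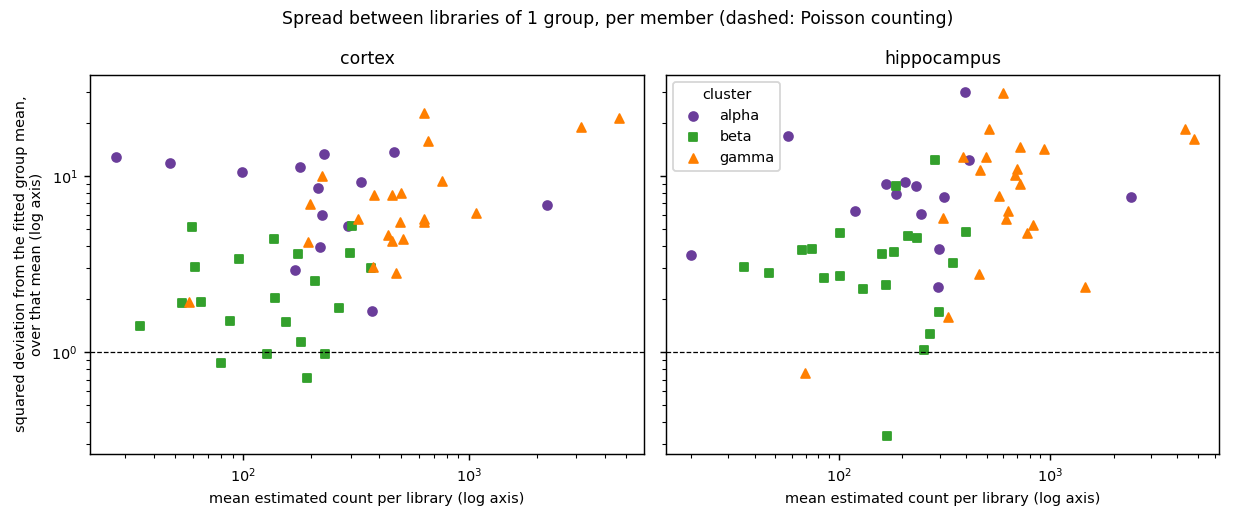
Spread between libraries of 1 group for each member (squared deviation from the fitted group mean over that mean, log axis) against its mean estimated count per library (log axis), in cortex and hippocampus. Medians are 8.92 for alpha, 1.94 for beta and 5.95 for gamma genes in cortex and 7.77, 3.23 and 9.54 in hippocampus, gamma genes lie at higher counts than beta genes, and the dashed line marks counting noise alone.

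Region was the comparison in which members differed. Between wild-type hippocampus and wild-type cortex, 14 of the 57 members tested passed an adjusted p of 0.05 (edgeR's quasi-likelihood test, Benjamini-Hochberg over all genes), 13 of them lower in hippocampus and 1 higher. That is 24.6% of the members, where 39.5% of all genes passed. By direction, 22.8% of the members were lower against 20.7% of all genes, and 1.75% were higher against 18.8% of all genes. In knockout mice 17 of 57 passed, 14 lower and 3 higher, which is 29.8% where 38.8% of all genes passed. Here 24.6% of the members were lower against 19.6% of all genes, and 5.26% were higher against 19.2%. The share that fell was thus near that of all genes. The regions did not overlap for 8 members in wild type (29.5% of all genes) and 9 in knockout (29.8% of all genes), all lower in hippocampus. Median log2 fold changes of the members were -0.14 in wild type and -0.13 in knockout, beside 0.01 over all genes in both.

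In the alpha cluster 5 of 14 genes fell in each genotype. Pcdha5 had the smallest p of any member in wild type. Its level was 19.1, 18.9, 20.8, 17.9 and 20.5 CPM in wild-type cortex and 11.4, 11.4, 10.4, 9.92 and 9.91 CPM in wild-type hippocampus. All hippocampus libraries lay below all cortex libraries, with a log2 fold change of -0.89 (SE 0.07, edgeR adjusted p = 5.30e-07). In knockout it was at 17.8, 19.6, 16.2, 18.1 and 19.2 CPM in cortex and 11.5, 10.6, 14, 12.8 and 12.03 CPM in hippocampus, a log2 fold change of -0.59 (SE 0.08). Again the regions did not overlap.

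Further along the array, Pcdha11 and Pcdha12 fell in both genotypes. Pcdha11 had log2 fold changes of -0.84 (SE 0.18) in wild type and -0.86 (SE 0.21) in knockout, and Pcdha12 of -0.58 (SE 0.14) and -0.52 (SE 0.12). Pcdha10 fell in wild type (-0.57, SE 0.19) and had -0.16 (SE 0.17) in knockout, where it did not pass. The reverse held for Pcdha9, with -0.14 (SE 0.11) in wild type, which did not pass, and -0.43 (SE 0.13) in knockout, which did. No test of the difference between genotypes passed for any of these.

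Pcdhac2, known for its role in the spacing of serotonergic axons, fell less but evenly. It was at 125, 116, 121, 109 and 115 CPM in wild-type cortex and at 91.8, 91.1, 97.1, 100.03 and 98.9 CPM in wild-type hippocampus. The lowest cortex library was above the highest hippocampus library, and the log2 fold change was -0.30 (SE 0.05). In knockout it was -0.25 (SE 0.06), again without overlap. Pcdhac1 had -0.32 (SE 0.15) and -0.26 (SE 0.11) and did not pass in either. The sum over the alpha cluster, which does not depend on how shared reads were divided among its genes, was 246 to 274 CPM in wild-type cortex and 199 to 218 CPM in wild-type hippocampus. In knockout it was 245 to 280 CPM against 198 to 220 CPM. Thus the regions did not overlap in either genotype. Nor did they for the sum of all members, with 1272 to 1351 against 1145 to 1247 CPM in wild type. In knockout that sum was 1242.07 to 1360.06 against 1103.78 to 1241.2 CPM. Beta sums separated the regions in knockout alone (170 to 177 against 128 to 166 CPM), and gamma sums overlapped in both genotypes.

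Among the 21 beta genes tested, 5 fell and none rose in each genotype. Pcdhb19 had the smallest p among them in both. It stood at 9.73, 10.4, 9.72, 9.89 and 10.5 CPM in wild-type cortex and at 5.42, 7.69, 6.27, 8.24 and 5.86 CPM in wild-type hippocampus. The regions did not overlap, and the log2 fold change was -0.60 (SE 0.11, edgeR adjusted p = 0.000866). In knockout the change was -0.84 (SE 0.14). Pcdhb16 (-0.47, SE 0.13, and -0.45, SE 0.13), Pcdhb20 (-0.44, SE 0.11, and -0.40, SE 0.08) and Pcdhb17 (-0.30, SE 0.09, and -0.23, SE 0.09) also fell in wild type and in knockout, in that order of values.

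Pcdhb12 passed in wild type alone (-0.33, SE 0.09, against -0.15, SE 0.11, in knockout) and Pcdhb21 in knockout alone (-0.95, SE 0.22, against -0.50, SE 0.24, in wild type). In knockout Pcdhb21 was at 3.31, 3.64, 2.94, 2.41 and 5.08 CPM in cortex and 1.31, 1.44, 2.09, 1.90 and 2.23 CPM in hippocampus, without overlap. The beta genes that fell stood late in their cluster, at positions 12 to 20 of 22 in wild type and 16 to 21 in knockout. Over the 21 genes Spearman's rho between position and log2 fold change was -0.59 in wild type and -0.42 in knockout. The corresponding values were -0.46 and -0.47 over 14 alpha genes and -0.46 and -0.37 over 22 gamma genes.

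Gamma genes moved both ways. Pcdhgc5 fell most clearly. Its values were 235, 263, 261, 228 and 234 CPM in wild-type cortex and 181, 180, 202, 206 and 183 CPM in wild-type hippocampus. No library of 1 region reached the range of the other, and the log2 fold change was -0.37 (SE 0.06, edgeR adjusted p = 0.000200). In knockout it was -0.28 (SE 0.05). Pcdhgc3, its C-type neighbour, did not pass, with 0.08 (SE 0.06) and 0.08 (SE 0.05), nor did Pcdhgc4, with -0.21 (SE 0.11) and -0.13 (SE 0.08).

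The ratio of Pcdhgc5 to Pcdhgc3 separated the regions. It was 1.22 to 1.79 in wild-type cortex and 1.05 to 1.16 in wild-type hippocampus, and 1.30 to 1.62 against 1.06 to 1.19 in knockout. Because the ratio is taken within a library, it does not depend on scaling between libraries, though it does rest on how reads of the shared constant exons were divided. The C-type share of the gamma CPM was 48.5% ± 0.691 in wild-type cortex and 45.6% ± 0.357 in wild-type hippocampus, and 47.2% ± 0.655 and 45.3% ± 1.23 in knockout (SD, n = 5).

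Of the A-type and B-type gamma genes, Pcdhga12 fell in both genotypes (-0.34, SE 0.09, and -0.36, SE 0.08), as did Pcdhga9 (-0.24, SE 0.08, and -0.50, SE 0.14). Pcdhgb5 rose in wild type, from 10.7, 12.8, 8.80, 10.1 and 7.70 CPM in cortex to 12.2, 12.8, 14.9, 14.7 and 13.3 CPM in hippocampus, a log2 fold change of 0.43 (SE 0.12). The ranges overlapped, and in knockout it had 0.24 (SE 0.11), short of the threshold. In knockout Pcdhga7 fell (-0.34, SE 0.07), and Pcdhga1 (0.47, SE 0.16), Pcdhga3 (0.30, SE 0.10) and Pcdhgb4 (0.36, SE 0.13) rose. The 3 hippocampus libraries with the most Ttr, a choroid plexus gene, were then left out: knockout replicates 2 and 4 and wild-type replicate 4. With fewer libraries to test, Pcdhga1 (0.36), Pcdhga3 (0.23), Pcdhgb4 (0.36), Pcdhb17 (-0.24) and Pcdha9 (-0.45) no longer passed in knockout. There 12 of the 17 calls were kept and Pcdha7 was gained, all lower, while calls over all genes went from 5838 to 4722. In wild type, where replicate 4 alone was left out, Pcdha10 was lost and Pcdhga8 and Pcdhgb1 were gained, which made 3 higher and 12 lower. Calls over all genes went from 5861 to 5528 there. With the replicate number as a block, Pcdhga1, Pcdhga6, Pcdhgb1 and Pcdhgb4 also passed in wild type, which made 4 more calls. Over all genes the calls went from 5861 to 6629 with this block.

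**Figure D3:**
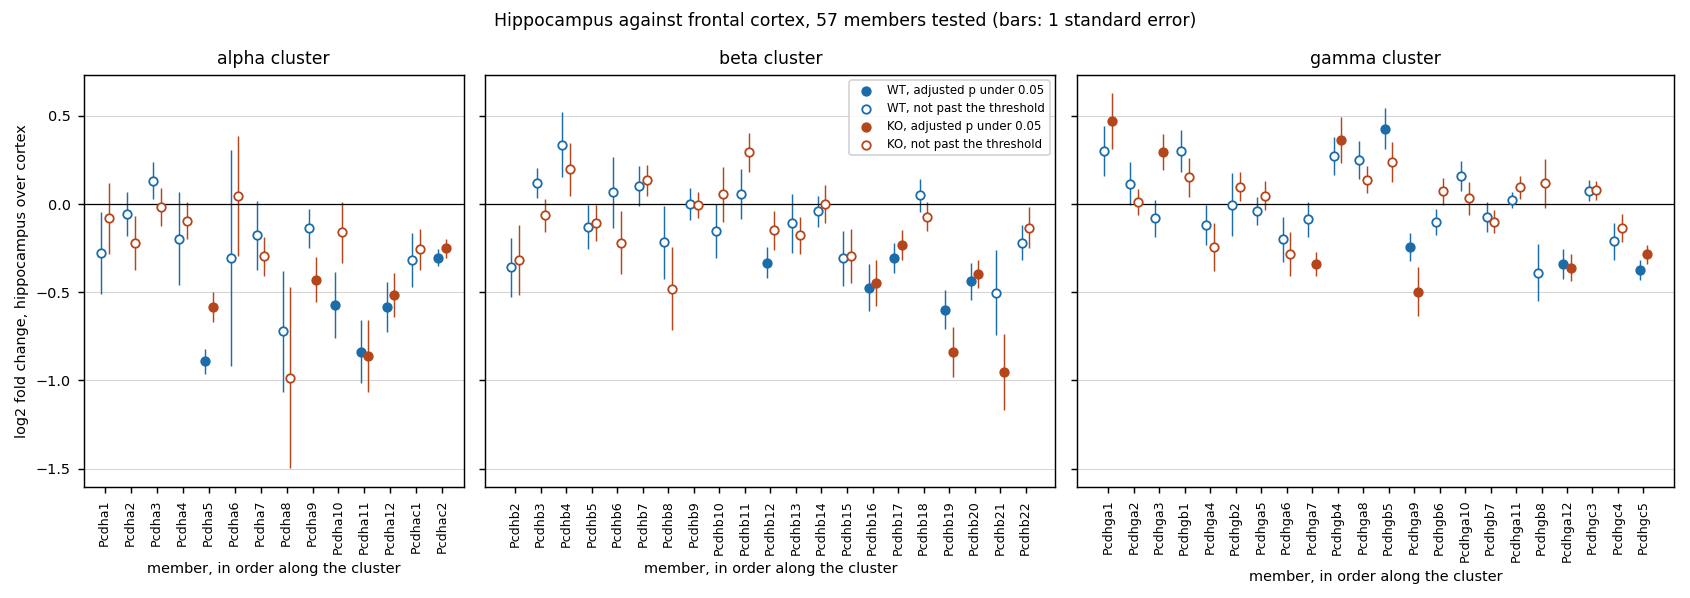
Log2 fold change of hippocampus over cortex for the 57 members tested, in order along each cluster, with bars of 1 standard error and filled points for an adjusted p under 0.05. In both genotypes Pcdha5, Pcdha11, Pcdhb19 and Pcdhgc5 lie below 0, and the points above 0 that passed belong to gamma genes.

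The regional values in wild type and in knockout come from separate libraries and could be set side by side. Of the members called, 11 were shared, which is 78.6% of the 14 in wild type and 64.7% of the 17 in knockout. These were Pcdha5, Pcdha11, Pcdha12, Pcdhac2, Pcdhb16, Pcdhb17, Pcdhb19, Pcdhb20, Pcdhga9, Pcdhga12 and Pcdhgc5. Over all genes tested in both, 81.7% and 82.7% of the calls were shared. Of the 57 members, 44 had the same sign (77.2%, against 87.4% of all genes), 32 lower and 12 higher.

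Markers of other cell types moved with region as well. Striatal neuron markers (6 of 6 listed) summed to 493 to 775 CPM in wild-type cortex and 508 to 890 CPM in knockout cortex, against 63.0 to 87.1 and 64.3 to 109 CPM in hippocampus. Interneuron markers (5 of 5) were at 808 to 1017 and 821 to 950 CPM in cortex, against 683 to 766 and 665 to 763 CPM in hippocampus. Of these genes 4 passed as lower and 0 as higher in each genotype. Sst overlapped between regions, with 81.4 to 102 CPM in wild-type cortex and 86.7 to 110 CPM in wild-type hippocampus. Gad1 (375 to 470 CPM) and Gad2 (257 to 386 CPM) were the largest values of the sum in wild-type cortex. Choroid plexus markers (6 of 6) reached 2277 CPM in 1 hippocampus library of wild-type mice and 3533 CPM in 1 of knockout mice, and 247 CPM in knockout cortex replicate 1. Kcne2 of that list was at 0 in 3 libraries, Eomes of the neuroblast list at 0 in 1, and no other marker at 0 in any. Fewer cells of a type and less RNA per cell cannot be told apart in bulk tissue, and the part of these cell types in the regional differences was not tested.

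Loss of Ncs1 was compared within each region. In frontal cortex 0 of 57 members passed in edgeR, where 0.027% of all genes passed (0.0135% higher and 0.0135% lower). DESeq2 and limma-voom also called 0 members, though DESeq2 gave no adjusted p to 47 of them. Of all genes DESeq2 called 1.09% and limma-voom 0.027%. At an unadjusted edgeR p under 0.05 there were 4 members (7.02%), against 14.8% of all genes. Median log2 fold changes, knockout over wild type, were 0.04 for alpha, 0.05 for beta and -0.05 for gamma genes, beside 0.00 over all genes, with a median standard error of 0.11 over the members. The alpha median turned negative when any of wild-type replicates 1 and 3 and knockout replicates 3 and 5 was left out (-0.07 without knockout replicate 5) and with the surrogate variable (-0.0044).

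Pcdhb19 stood nearest to the threshold. In knockout cortex it was at 12.8, 15.2, 14.01, 12.5 and 14.03 CPM, against 9.73, 10.4, 9.72, 9.89 and 10.5 CPM in wild type. All 5 knockout libraries lay above all 5 wild-type libraries. It was the 1 member of 57 without overlap, where 2.17% of all genes had none. The log2 fold change was 0.45 (SE 0.07), with an edgeR adjusted p of 0.0580. Without wild-type cortex replicate 5 the adjusted p was 0.0170 and the call passed, in a fit where 563 genes passed in place of 4. Leaving out any other cortex library gave 0.0552 to 0.239. It was 0.152 with the replicate number as a block, 0.219 with the surrogate variable and 0.430 in 1 fit of all 20 libraries. In none of these did Pcdhb19 pass. In hippocampus Pcdhb19 was at 5.09, 6.95, 9.30, 8.15 and 8.99 CPM in knockout, which overlapped the wild-type values of 5.42 to 8.24 CPM, and the log2 fold change was 0.21 (SE 0.17). Its span, 37496998 to 37501711 of chromosome 18, overlapped no other member and the 3 read-through models.

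The other 3 members under an unadjusted p of 0.05 in cortex were Pcdhb8, with a mean of 1.52 ± 0.251 CPM in wild-type mice against 2.06 ± 0.476 CPM in knockout mice (SD, n = 5, log2 fold change 0.47, SE 0.20), Pcdhga11 (-0.16, SE 0.06) and Pcdhgc5 (-0.12, SE 0.05). All had overlapping groups. The sums over clusters overlapped too, with 246 to 274 CPM for alpha genes in wild-type mice against 245 to 280 CPM in knockout mice, 152 to 173 against 170 to 177 CPM for beta genes and 845 to 910 against 819 to 905 CPM for gamma genes.

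**Figure D4:**
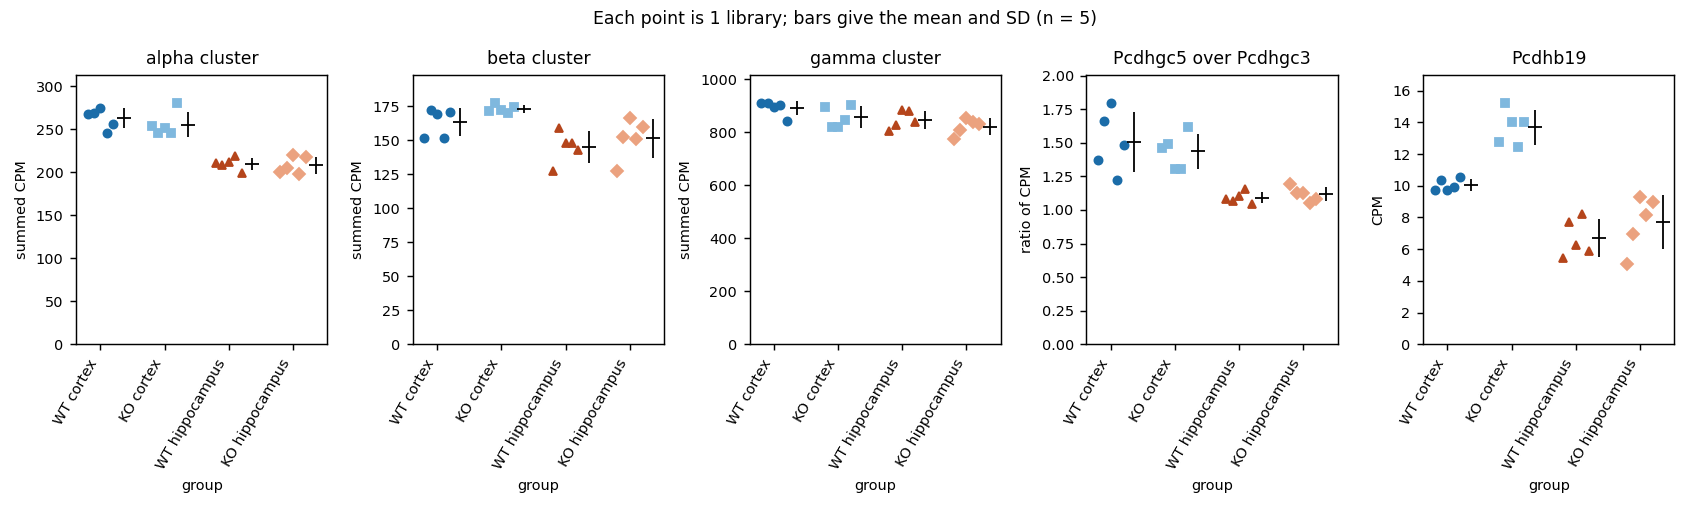
Summed CPM of each cluster, ratio of Pcdhgc5 to Pcdhgc3 and CPM of Pcdhb19 by group, with 1 point per library and the mean and SD of 5 libraries beside them. Alpha sums and the Pcdhgc5 to Pcdhgc3 ratio separate the regions in both genotypes, and beta sums in knockout alone. Pcdhb19 in knockout cortex (12.5 to 15.2 CPM) lies above wild-type cortex (9.72 to 10.5 CPM).

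In hippocampus 0 of 57 members passed in edgeR, where 0.0266% of all genes passed (0.0133% higher and 0.0133% lower), and 0 in DESeq2 and limma-voom. At an unadjusted p under 0.05 edgeR had 6 members (10.5%), against 3.78% of all genes. Pcdhga3 had the smallest p of these. It was at 34.9, 30.2, 33.8, 33.7 and 28.6 CPM in wild-type mice and at 36.8, 48.7, 43.4, 36.7 and 34.9 CPM in knockout, so that the ranges met near 34.9 CPM. Its log2 fold change was 0.32 (SE 0.09) with an edgeR adjusted p of 0.991. Pcdhga7 was next, at 28.9, 24.8, 29.9, 33.8 and 35.3 CPM in wild-type mice and 27.2, 26.8, 23.0, 23.8 and 27.4 CPM in knockout, with overlap and a log2 fold change of -0.24 (SE 0.09).

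The remaining 4 were Pcdhgb6 (0.19, SE 0.07), Pcdha5 (0.21, SE 0.09), Pcdhgb5 (-0.18, SE 0.07) and Pcdhb11 (0.28, SE 0.13), all with an edgeR adjusted p of 0.991. One member, Pcdhb3, had groups that did not overlap, with 6.69 to 7.58 CPM in wild-type against 5.94 to 6.63 CPM in knockout libraries (log2 fold change -0.13, SE 0.08), where 0.439% of all genes had none. Median log2 fold changes were 0.07 for alpha, 0.06 for beta and -0.06 for gamma genes, beside 0.01 over all genes. The alpha median was -0.0046 without knockout replicate 2 and -0.02 without knockout replicate 5.

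The genotype comparisons of cortex and hippocampus share no library. In wild type, though, deviations of same-numbered libraries of the regions correlated at 0.117 to 0.435, so the comparisons cannot be taken as independent. Of 57 members 35 (61.4%) had the same sign in both, 20 higher and 15 lower, against 71.1% of all genes tested in both. In the beta cluster 16 of 21 did, 13 of them higher in knockout, and in the gamma cluster 11 of 22 did, 9 of them lower. None of these genes passed in either region, so the counts describe signs of differences mostly within their error. Marker sums of all 11 cell type lists overlapped between genotypes in both regions.

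**Figure D5:**
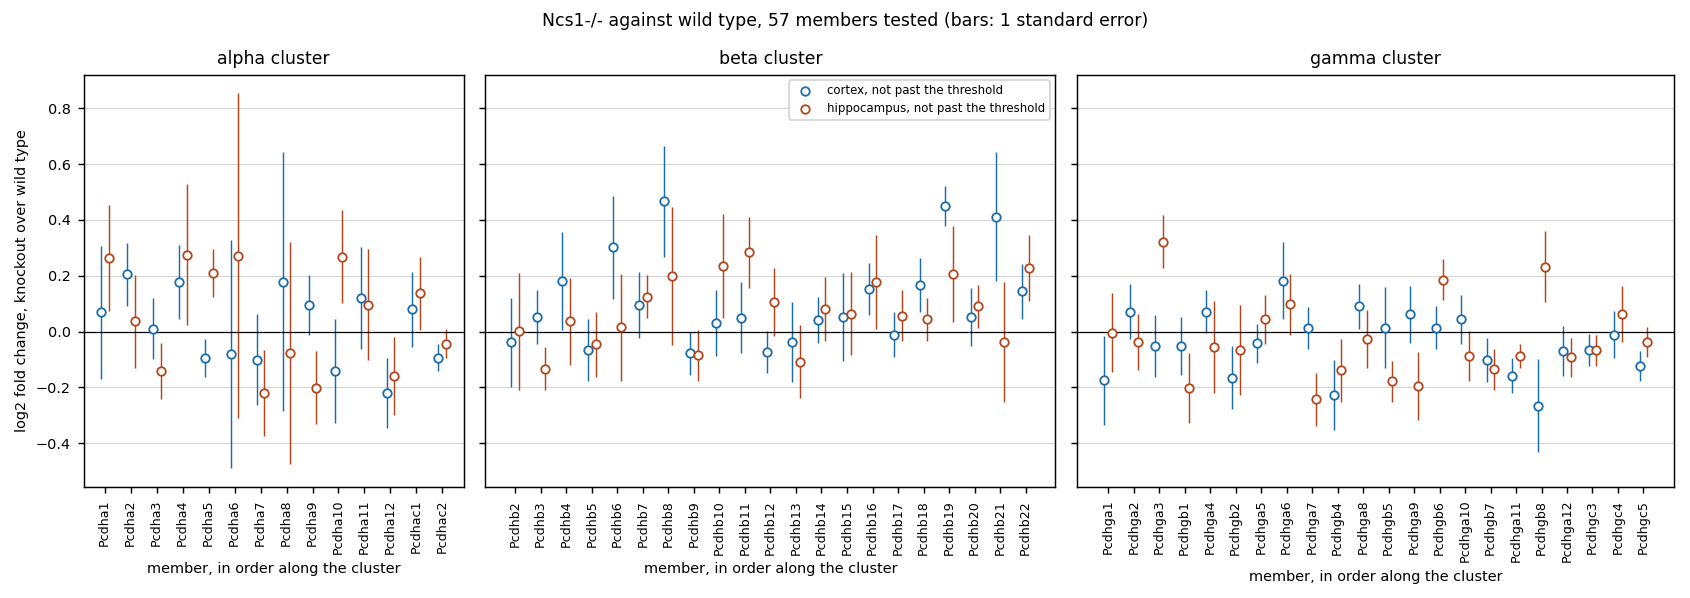
Log2 fold change of knockout over wild type for the 57 members tested in cortex and in hippocampus, in order along each cluster, with bars of 1 standard error and open points because none passed an adjusted p of 0.05. Pcdhb19 in cortex, at 0.45 (SE 0.07), lies farthest from 0 relative to its error.

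Whether the genotype difference itself differed between regions was tested over all 20 libraries. In edgeR 0 of 57 members passed and 0% of all genes did. DESeq2 and limma-voom called 0 members too, and over all genes 1 and 0. At an unadjusted edgeR p under 0.05 there were 3 members, where 1.4% of all genes lay, namely Pcdha5 (difference of log2 fold changes, hippocampus minus cortex, 0.29, SE 0.11), Pcdhgb8 (0.50, SE 0.21) and Pcdhga3 (0.37, SE 0.16). Pcdhb19 had -0.25 (SE 0.19). The median standard error of this difference over the members was 0.17.

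Genes that regulate or relay protocadherin function were examined from lists, whose counts stand beside 18.8% of all genes higher and 20.7% lower in hippocampus of wild type and 19.2% and 19.6% in knockout. Of 18 genes linked to the choice of variable promoters, 1 rose and 3 fell from cortex to hippocampus in wild type, and 2 rose and 3 fell in knockout. Dnmt3a, a DNA methyltransferase, fell from 108 ± 12.3 to 76.5 ± 4.94 CPM in wild type (log2 fold change -0.51, SE 0.07), and Dnmt1, the maintenance methyltransferase, fell too (-0.25, SE 0.06). Smc3, a cohesin subunit, rose by 0.18 (SE 0.05). Ctcf, which binds the variable promoters and their enhancers, was at 88.0 CPM in wild-type cortex and 89.3 CPM in wild-type hippocampus, a log2 fold change of 0.00 (SE 0.04) that did not pass.

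Of 29 partners, processing enzymes and signalling proteins, 11 rose and 8 fell in wild type, and 9 rose and 6 fell in knockout. Ptk2b encodes Pyk2, a kinase held in check by the protocadherin cytoplasmic domain, and rose from 472 ± 29.4 to 901 ± 122.7 CPM in wild type (log2 fold change 0.92, SE 0.08). Wasf1, a subunit of the WAVE complex that some protocadherins recruit, rose by 0.69 (SE 0.06).

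The non-clustered protocadherins lie outside these clusters. Of the 11 tested, 4 rose and 6 fell in wild type, and 3 rose and 6 fell in knockout. Pcdh20 rose from 27.9 ± 3.98 to 210.2 ± 34.8 CPM in wild type (log2 fold change 2.90, SE 0.13), while Pcdh7 fell from 352 ± 24.8 to 129 ± 12.96 CPM (-1.46, SE 0.07) and Pcdh10 from 323 ± 21.8 to 155 ± 13.7 CPM (-1.08, SE 0.07). Of 15 genes of other adhesion families, 6 rose and 5 fell in wild type and 7 rose and 4 fell in knockout, among them Cdh9 (0.96, SE 0.07), Dscaml1 (0.82, SE 0.07) and Cdh10 (-0.62, SE 0.06) in wild type.

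Between genotypes edgeR and limma-voom called 0 genes of these 4 lists in either region. At an unadjusted edgeR p under 0.05 in cortex there were 7 of the 18 promoter choice genes, 0 of the 29 partners, 5 of the 11 non-clustered protocadherins and 4 of the 15 other adhesion genes, where 14.8% of all genes lay. In hippocampus there were 1, 0, 0 and 0, where 3.78% of all genes lay. DESeq2 called Fat4, an atypical cadherin, and Pcdh15 in cortex, both higher in knockout, and 0 in hippocampus. Over all genes DESeq2 called 162 of 14823 in cortex (1.09%) and gave no adjusted p to 8047. In edgeR Fat4 had 0.37 (SE 0.07) and Pcdh15 0.36 (SE 0.09), and neither passed.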

How the data were processed

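Frontal cortex and hippocampus RNA of 20 libraries was isolated on RNeasy Mini columns, according to the labels. The authors deposited expected counts (estimated counts per gene, not scaled for depth) in 1 table per region. STAR 2.7.3a, Partek and the mm10 build are named, per the submitters' processing notes. For the annotation and the strand setting of the counting: not given in the sources. Groups and replicate numbers come from the sample titles. An end coordinate is the deposited stop minus 1, since 63.6% of the stops were 1 above the RefSeq end.

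After rounding, edgeR 4.0.16 (R 4.3.3) was used with filterByExpr, TMM scaling and quasi-likelihood tests. P-values were adjusted by Benjamini-Hochberg over all genes tested, at 0.05. The standard error is the fold change over the root of F. Levels are CPM from unrounded counts after TMM scaling over 20 libraries. Exonic and coding lengths were matched by symbol to GENCODE M21, for 57 of the 58 members. The method was tested on simulated counts for the cortex genotype comparison. Those counts were drawn for each gene on its own, so that test does not cover the division of shared reads. Depth of 16.6 M to 34.6 M counts limits precision for low genes such as Pcdhb1 and Pcdha8.

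The members, lists and tests were chosen with earlier results of these data known. Named members are those past the threshold, the 3 with the smallest p per cluster where fewer passed, the C-type genes, the 3 highest and 3 lowest per kb in each cluster and Pcdhb19. Of each pathway list the 3 genes with the smallest p between regions are named, except 1 gene that is not reported here. Ctcf, Fat4 and Pcdh15 were named after their values were seen, as was Pcdhb3. No pair of libraries within a group agreed within sampling noise (lowest chi-square per degree of freedom 3.45). In the wild-type regional comparison the replicate numbers paired the samples by the data, since deviations of same-numbered libraries correlated at 0.117 to 0.435, each highest with its own number.

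Alternatives were RLE and total-count scaling, DESeq2 1.42.0, limma-voom 3.58.1, no filter, a filter at 1 CPM, unrounded counts, the replicate block, 1 fit of 20 libraries, a surrogate variable from sva 3.50.0, removal of the length trend, libraries left out, and glmTreat against 1.2-fold. Coding length and the deposited span were added after seeing the data.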

Additional observations from a re-analysis of the deposited data

Results flagged for a closer look

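Within groups of 5 libraries, 156 sets of values (36 named members and 3 cluster sums in 4 groups) were searched for a library that stood apart from the rest by Dixon's ratio, with a critical value of 0.71. In 10 of them 1 library did. Chance flags about 1 in 20 groups.

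Wild-type cortex replicate 5 stood apart in 3 of these. Its gamma sum was 845 CPM where the others held 895 to 910 CPM, its Pcdhga12 was at 30.6 CPM against 41.3 to 42.0 CPM, and its Pcdhb9 at 16.3 CPM against 12.7 to 13.7 CPM. The same library, when left out, let 563 genes pass in the cortex genotype comparison. In the other wild-type cortex libraries Pcdha8 was at 2.49 CPM in replicate 3 against 0.752 to 1.25 CPM, Pcdhb12 at 10.9 CPM in replicate 2 against 9.59 to 9.82 CPM, and Pcdhb1 at 0.506 CPM in replicate 1 against 0 to 0.141 CPM.

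Among knockout libraries, the alpha sum of cortex replicate 5 was 279.8 CPM against 245 to 254 CPM, and Pcdhb20 in cortex replicate 1 was at 13.2 CPM against 15.8 to 16.4 CPM. In hippocampus Pcdhgb8 was at 3.28 CPM in replicate 2, the library with the most Ttr at 3118 CPM, against 2.74 to 2.81 CPM. Pcdhgc4 was at 19.6 CPM in hippocampus replicate 1 against 23.4 to 24.2 CPM.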

How the results depend on the processing

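Direction was checked for members past the threshold or with the smallest p per cluster, each in that comparison. Other genes named, and members outside those comparisons, were not checked for direction in the alternatives. No member so checked changed direction where an alternative gave it a value. Medians near 0 did: that of all members in the genotype comparisons (0.01 in cortex, 0.02 in hippocampus) and the interaction (0.01) ranged down to -0.02, -0.01 and -0.04 with 1 library left out, and the alpha medians turned as given above. Members called between regions numbered 14 to 17 in wild type (14 as reported) and 13 to 18 in knockout (17) over scaling, tool, filter, rounding, surrogate variable, length trend, 1 fit of all libraries and the Ttr libraries. Over all genes these fits called 35% to 44.9% in wild type and 31.3% to 41.9% in knockout. Against a fold of 1.2 with glmTreat, 4 members were called in each genotype, all lower. Of all genes 17.6% passed there in wild type and 17.8% in knockout. The members were Pcdha5, Pcdha11, Pcdha12 and Pcdhb19 in wild type and Pcdha5, Pcdha11, Pcdhb19 and Pcdhb21 in knockout. With 1 library left out the counts ranged from 12 to 16 in wild type, 12 to 19 in knockout, 0 to 1 in the cortex genotype comparison and 0 to 0 in hippocampus and in the interaction. The 1 was Pcdhb19 without wild-type cortex replicate 5. Calls over all genes between regions ranged from 5349 to 5786 in wild type and from 5122 to 5981 in knockout. Calls lost in several of these fits were those of Pcdha10 and Pcdhga9 in wild type and of Pcdha9, Pcdhb17, Pcdhga1, Pcdhga3 and Pcdhgb4 in knockout. With the replicate block 18 members were called between regions in wild type (4 higher, 14 lower, the 14 reported among them), where 44.6% of all genes passed. It called 20 in knockout, where 41.6% of all genes passed, and 0 in each genotype comparison and the interaction. Outside the wild-type regional comparison the numbers paired the samples in part at most. Correlations of same-numbered libraries were -0.08 to 0.17 between genotypes in cortex, -0.03 to 0.35 in hippocampus, and -0.16 to 0.22 between regions in knockout. Between regions in knockout, cortex replicates 3, 4 and 5 correlated highest with their own number, and replicates 1 and 2 with another. Between genotypes only replicate 1 correlated highest with its own number, in each region. Per kb of coding length the C-type share of the gamma cluster was 48.2% and 47.0% in wild-type and knockout cortex and 45.4% and 45.1% in hippocampus, against 42.0%, 40.8%, 39.8% and 39.4% per kb of exonic length. The coding length of a protein table was not run. Low counts limit Pcdhb1, Pcdha8 and Pcdha6, and the division of shared reads limits every single alpha and gamma gene.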
